A study of Mus musculus with 4 samples.

Results

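The cells described here are liver B cells that carried little mRNA for the activation-associated genes Mreg, Cd86 and Cd200. A cell was included when it held at least 3 UMIs (unique molecular identifiers, each counting an mRNA molecule) of Cd79a, Cd79b and Ms4a1 together, 0 UMIs of Cd3d, Cd3e and Cd3g, at most 10% mitochondrial UMIs and at most 1 UMI of Mreg, Cd86 and Cd200 together. Cells were thus chosen by their own UMIs of these genes, which are given as a description only. The rule was met by 2422 of the 9300 cells in 4 droplet libraries of liver mononuclear cells from C57BL/6 mice aged 8 to 10 weeks, which were made with a 5′ gene expression kit. The Naïve library came from mice without treatment. The ConA+Veh library, labelled ConA by the submitters, came from mice given concanavalin A (ConA), a lectin that activates T cells and causes immune hepatitis, and then vehicle in the study's methods. The ConA+TCDD and ConA+FICZ libraries came from ConA-treated mice that also received TCDD, a persistent ligand of the aryl hydrocarbon receptor (AhR), or FICZ, a tryptophan-derived AhR ligand that is degraded quickly. Livers of ConA-treated mice were collected 24 hours after ConA in the study's methods, which describe neither the FICZ treatment nor the number of mice behind each library. Each group was 1 library, so no test between groups was possible, and every interval given is a 95% interval that covers counting error only.

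B cells recognize antigen through the B cell receptor, a membrane immunoglobulin that signals through CD79A and CD79B. Most B cells that recirculate through a liver are follicular cells, which carry IgD, the low-affinity IgE receptor CD23 (gene Fcer2a) and receptors for lymphoid tissue chemokines. Interferons released by activated T cells and other cells act on bystander lymphocytes and switch on a shared set of antiviral, antigen-processing and GTPase genes.

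The interferon genes were a main difference between the libraries, and the sequence just upstream of such genes often holds an interferon-stimulated response element built from repeats of GAAA. The 250 bases upstream of the RefSeq start of Isg15 and Igtp are shown because these genes stand for a type I and a type II interferon list in the results that follow. The bases are from RefSeq on GRCm38.p6, each written 5′ to 3′ on the strand of its gene, and capitals mark matches to GAAANNGAAA, where N is any base; overlapping matches were merged.
Isg15 (chr4:156200819-156201068, minus strand): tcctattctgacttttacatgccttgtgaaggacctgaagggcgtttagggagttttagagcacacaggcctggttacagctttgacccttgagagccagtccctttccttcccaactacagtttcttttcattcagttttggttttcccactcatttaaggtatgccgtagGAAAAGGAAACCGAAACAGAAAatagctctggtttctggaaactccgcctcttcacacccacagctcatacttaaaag
Igtp (chr11:58199306-58199555, plus strand): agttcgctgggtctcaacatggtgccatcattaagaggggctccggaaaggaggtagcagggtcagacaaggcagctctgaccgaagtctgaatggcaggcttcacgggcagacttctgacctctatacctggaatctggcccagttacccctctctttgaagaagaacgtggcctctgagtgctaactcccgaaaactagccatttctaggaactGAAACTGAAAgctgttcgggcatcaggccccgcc
Isg15 had 3 overlapping matches, the nearest of which began 66 bases upstream of the start, and Igtp had 1 match, which began 34 bases upstream. Searched on both strands in windows of this length, the letters occurred in 936 of 27025 genes with a promoter sequence (3.46%), in 8 of the 14 type I interferon-stimulated genes (57.1%) and in 10 of the 11 interferon-gamma-induced genes (90.9%) that had a promoter sequence, out of lists of 20 and 16 genes. A match describes the sequence and is not evidence of binding.

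The share of these B cells among all barcodes was highest in the Naïve library and lowest in ConA+TCDD. They made up 981 of 2086 cells in Naïve (47.0%, exact binomial interval 44.9 to 49.2), 584 of 2779 in ConA+Veh (21.0%, 19.5 to 22.6), 224 of 1880 in ConA+TCDD (11.9%, 10.5 to 13.5) and 633 of 2555 in ConA+FICZ (24.8%, 23.1 to 26.5). None of these intervals overlapped, but the spread between mice is not known, and with the rule applied to thinned cells ConA+Veh (22.1%) and ConA+FICZ (22.9%) lay close together. Fewer B cells and more cells of other kinds cannot be told apart in a share. The limit on Mreg, Cd86 and Cd200 removed 52, 61, 64 and 75 otherwise eligible cells from the Naïve, vehicle, TCDD and FICZ libraries, or 5.03%, 9.46%, 22.2% and 10.6% of them. It therefore took its largest part from ConA+TCDD. Among the cells with at least 3 B cell UMIs, not thinned, a Cd3 UMI was present in 2.04% of Naïve and 14.0% of ConA+Veh cells. These cells were also left out.

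**Figure D1:**
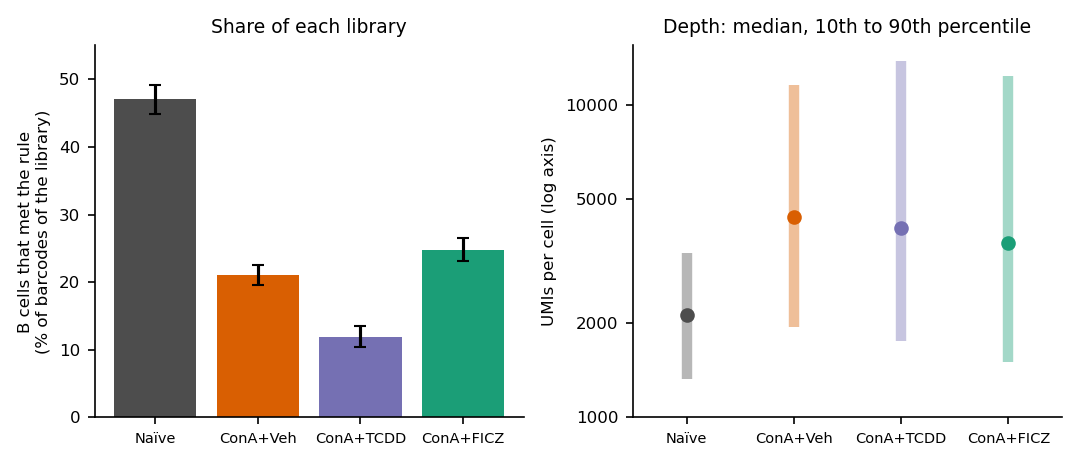
The first panel shows the percentage of all barcodes in each library that met the B cell rule, with exact binomial 95% intervals, and the second shows the median (point) and the 10th to 90th percentile (line) of UMIs per B cell on a log axis. Naïve holds the largest share at 47.0% and its cells the fewest UMIs, with a median of 2135.

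Depth differed between the libraries. The B cells held a median of 2135 UMIs in Naïve, 4395 in ConA+Veh, 4049 in ConA+TCDD and 3613 in ConA+FICZ, and their summed UMIs were 2314345, 3421368, 1320808 and 3532451. The median mitochondrial share was 4.43%, 2.70%, 2.92% and 3.28% in the same order. Levels are therefore given as CPM, the summed UMIs of a gene per 1000000 UMIs of the B cells of a library. Shares of cells with a UMI are given after each cell was thinned to 1000 UMIs, unless stated as not thinned. Between 4 and 15 barcodes were shared by any pair of libraries, and at most 1 of these was a B cell in both.

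Several cells lay near the thresholds. Cells with exactly 3 B cell UMIs numbered 19, 8, 13 and 12 in the Naïve, vehicle, TCDD and FICZ libraries, and 8, 16, 17 and 18 cells with 2 such UMIs met the other criteria. Exactly 1 UMI of Mreg, Cd86 and Cd200 was present in 194, 146, 59 and 165 of the B cells, and 42, 38, 31 and 52 cells with 2 such UMIs were outside. The median of the summed B cell UMIs was 13, 23, 18 and 15, well above the threshold of 3.

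Genes that the rule did not use were as in B cells. Pax5, the transcription factor that keeps B cell identity, was at 183, 123, 113 and 93.7 CPM in B cells of the Naïve, vehicle, TCDD and FICZ libraries. In T cells of the same libraries, taken as cells with at least 3 Cd3 UMIs and 0 B cell UMIs, Pax5 was at or below 0.571 CPM. Ebf1, which acts with Pax5, was at 1749, 474, 463 and 461 CPM in B cells and at or below 2.51 CPM in T cells. After thinning, Ebf1 was seen in 80.7%, 42.9%, 43.0% and 45.8% of B cells. B cell identity genes were thus present in every library, at higher levels in Naïve. The name "without activation markers" covers Mreg, Cd86 and Cd200 alone: other activation-linked genes were measured in these cells and are described with their own values.

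To ask how B cells of the injured liver differed from those of an untreated liver, ConA+Veh was set against Naïve. The median log2 ratios of the follicular marker and immediate early lists lay below the median of all genes. Those of the type I interferon-stimulated, cell cycle, growth and heat shock lists lay above it, although not every member passed 2-fold. Of 7153 genes with at least 50 UMIs in both libraries together, 556 were at least 2-fold higher in ConA+Veh (7.77%) and 1365 at least 2-fold lower (19.1%), or 26.9% in either direction. The median log2 ratio of all genes was −0.28. After centring on that median, 966 genes were higher and 788 lower, so that the higher genes made up 55.1% of the called genes in place of 28.9%. Centring adds 0.28 to each log2 ratio of this comparison, and the ratios below are given without it unless stated.

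Follicular markers had the lowest median of the B cell and pathway lists with at least 5 genes tested. Of 8 tested, 7 were at least 2-fold lower and 0 higher, with a median log2 ratio of −1.89 against −0.28 for all genes. Fcer2a was at 514 CPM in Naïve (Poisson interval 485 to 544), 36.2 in ConA+Veh (30.1 to 43.2), 31.8 in ConA+TCDD (22.9 to 43.0) and 29.4 in ConA+FICZ (24.1 to 35.7). The ConA libraries overlapped one another and lay 14.2-fold (ConA+Veh) or more below Naïve. After thinning, 37.4% of Naïve B cells and 4.89%, 3.17% and 3.72% of the B cells of ConA+Veh, ConA+TCDD and ConA+FICZ held a UMI of Fcer2a, against at most 0.254% of T cells. Fcer2a lies at chr8:3681737-3694175 on the minus strand (GRCm38).

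Complement and chemokine receptors of follicular cells were lower as well. Cr2, the complement receptor CD21, was at 88.1, 19.6, 12.9 and 19.8 CPM in the Naïve, vehicle, TCDD and FICZ libraries. Icosl, the ligand through which B cells engage ICOS on T cells, was at 84.7, 16.1, 12.9 and 27.5 CPM. Naïve stood above the ConA libraries for both genes, by 4.50-fold and 5.27-fold over ConA+Veh. Ccr7, the receptor that guides lymphocytes to T cell zones, was at 1103, 362, 358 and 262 CPM, and Cxcr5, which guides B cells to follicles, at 151, 62.0, 71.9 and 75 CPM. In T cells the follicular list had a median log2 ratio of −1.40, and Ccr7 was at 474 CPM in Naïve and 555 in ConA+Veh.

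Fewer single cells held Fcer2a or Cd55 after ConA. Cd55, a complement regulator, was found after thinning in 34.4% of Naïve B cells and in 8.20%, 6.79% and 8.58% of the B cells of ConA+Veh, ConA+TCDD and ConA+FICZ. Both genes were detected together in 14.2% of Naïve cells, in 0% of ConA+Veh and ConA+TCDD cells and in 0.485% of ConA+FICZ cells. Neither was detected in 42.4%, 86.9%, 90.05% and 88.2% of cells. Among cells of 1500 to 4000 UMIs, a window that brings the median depths to 2222 (Naïve) and 2762 (ConA+Veh), 5 of the 8 follicular markers were still at least 2-fold lower, with a median log2 ratio of −1.46.

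**Figure D2:**
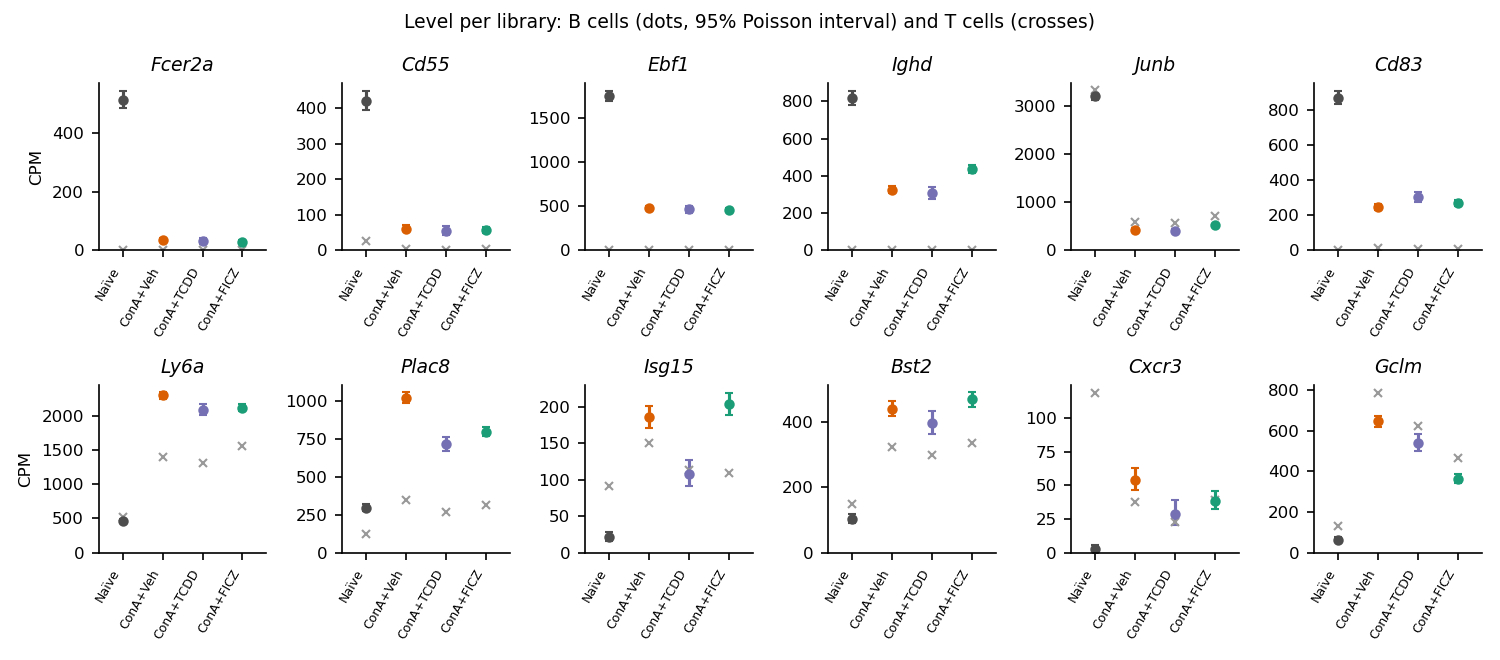
Levels of 12 genes in the B cells of the 4 libraries, in CPM on a linear axis. Points are B cells with 95% Poisson intervals and crosses are T cells of the same library. Fcer2a is at 514 CPM in Naïve and 36.2 in ConA+Veh, whereas Ly6a, Isg15 and Bst2 stand higher in the ConA libraries.

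Of 16 B cell transcription factors, 7 were at least 2-fold lower and 0 higher (median log2 ratio −0.95), and 4 lower and 1 higher after centring. Klf2, which holds lymphocytes in a resting, recirculating state, was at 1398, 390.5, 305 and 354 CPM in the Naïve, vehicle, TCDD and FICZ libraries, and in T cells at 913 CPM in Naïve and 131 in ConA+Veh. Irf4, a factor induced by receptor signalling, was at 192, 45.9, 49.2 and 52.7 CPM in B cells. Both were lower in all 3 ConA libraries, by 3.58-fold and 4.18-fold in ConA+Veh. In cells of 1500 to 4000 UMIs the log2 ratio of Klf2 was −0.89 in place of −1.84. Among 15 genes of receptor signalling, 5 were at least 2-fold lower and 0 higher (median −0.79), including the kinase gene Blk (334 CPM in Naïve and 93.2 in ConA+Veh). After centring, 2 of the 15 were lower (median −0.51), near the share of all genes (788 of 7153).

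Of 8 inhibitors of the B cell receptor tested, 3 were at least 2-fold lower and 0 higher (median −0.57). Siglecg, an inhibitory sialic acid receptor, was at 330.1, 74.5, 56.0 and 91.4 CPM, and Inpp5d, which encodes the phosphatase SHIP1, at 372, 105, 103 and 126 CPM in the Naïve, vehicle, TCDD and FICZ libraries. Fcgr2b, the inhibitory Fc receptor, was lowest in Naïve, at 123, 205, 192 and 193 CPM. It was 1.66-fold higher in ConA+Veh, a log2 ratio of 0.73 that reached 1.01 after centring.

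Most immediate early genes, which follow receptor or stress signals within minutes to hours, were higher in Naïve. Of 14 immediate early genes, 13 were at least 2-fold lower in ConA+Veh and 1, Atf3, was higher, with a median of −1.78. Junb, a subunit of the AP-1 factor, was at 3208 CPM in Naïve, 434 in ConA+Veh, 403 in ConA+TCDD and 526 in ConA+FICZ. Fos, its partner, was at 656, 46.2, 33.3 and 135 CPM. Naïve was above every ConA library for both genes. The order was the same in T cells, where Junb was at 3340.3, 586, 565 and 721 CPM. Immediate early genes also respond to tissue dissociation, which all libraries underwent, and the part of dissociation in this difference was not tested.

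Most B cell activation genes tested were at least 2-fold lower in ConA+Veh, in cells that passed the limit on Mreg, Cd86 and Cd200. Of 12 tested, 7 were at least 2-fold lower and 0 higher (median −1.51), and the highest log2 ratio was 0.95. Cd83, a surface protein that stabilizes MHC class II, was at 868, 248, 302 and 267 CPM in the Naïve, vehicle, TCDD and FICZ libraries. Nr4a1, a reporter gene of antigen receptor signalling, was at 821, 167, 138 and 100.2 CPM, and Nfkbid, which encodes a nuclear IκB protein, at 426, 65.5, 68.9 and 62.0 CPM. Naïve was highest for all 3 genes. In T cells Nr4a1 was at 137 CPM in Naïve and 128 in ConA+Veh, and Nfkbid at 64.1 and 62.2 CPM, so their levels in T cells lay close together.

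Of 9 MHC class II genes, 2 were at least 2-fold lower (median −0.84), a share near the 19.1% of all genes, and the invariant chain gene Cd74 was at 25669, 14869, 12880.0 and 11908 CPM in the Naïve, vehicle, TCDD and FICZ libraries. H2-Ob, a subunit of the peptide-loading modulator H2-O, was at 639, 191, 143 and 166 CPM. Of 14 MHC class I and immunoproteasome genes, 3 were at least 2-fold higher and 0 lower (median 0.26). Psme2, a subunit of the proteasome activator PA28, was at 214, 668, 722 and 690.5 CPM, and Psmb9, an immunoproteasome subunit, at 176, 407, 350.0 and 382 CPM.

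Type I interferon-stimulated genes came next to cell cycle genes as the highest B cell and pathway lists with at least 5 genes tested. Of 17 tested, 10 were at least 2-fold higher in ConA+Veh and 0 lower, with a median of 1.37. Isg15, a ubiquitin-like protein whose upstream sequence is shown above, was at 21.6 CPM in Naïve (16.0 to 28.5), 186 in ConA+Veh (171 to 201), 108 in ConA+TCDD (91.2 to 128) and 204 in ConA+FICZ (189 to 219). Ly6a, the GPI-anchored protein Sca-1, was at 464 CPM in Naïve (437 to 493), 2302 in ConA+Veh, 2091 in ConA+TCDD and 2120 in ConA+FICZ. All 3 ConA libraries lay above Naïve for both genes, by 8.59-fold (Isg15) and 4.96-fold (Ly6a) in ConA+Veh. Bst2 (tetherin, which holds budding virions at the membrane) was at 104, 441, 397 and 469 CPM, and Zbp1, a nucleic acid sensor, at 38.0, 186, 138 and 179.8 CPM.

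The summed UMIs of the type I list reached 2 or more in most B cells of the ConA libraries. After thinning, the sum of the type I list had a median of 1 UMI per cell in Naïve, 7 in ConA+Veh and 6 in each of ConA+TCDD and ConA+FICZ. At least 2 such UMIs were found in 32.8% of Naïve cells and in 96.7%, 89.6% and 95.1% of cells of ConA+Veh, ConA+TCDD and ConA+FICZ. Ly6a was seen in 27.1% of thinned Naïve B cells and in 80.1%, 81.0% and 76.4% of thinned cells in the ConA libraries. Isg15 was seen in fewer cells, 1.56%, 14.7%, 11.3% and 14.1% in the Naïve, vehicle, TCDD and FICZ libraries, and Ifitm3 in 0.832%, 10.1%, 10.4% and 9.55%, so single genes of the list differed widely. In the window of 1500 to 4000 UMIs, 12 of 13 tested genes of the list were at least 2-fold higher, with a median of 2.34. For the 17 genes tested without that window, the median log2 ratio of ConA+Veh over Naïve in T cells was 0.17.

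Interferon-gamma-induced genes were higher in part. Of 12 tested, 4 were at least 2-fold higher (Gbp2, Tgtp2, Igtp and Socs1) and 1 lower (Ciita, the master regulator of MHC class II), with a median of 0.41. Igtp, an immunity-related GTPase whose upstream sequence is shown above, was at 19.01, 41.5, 38.6 and 51.5 CPM in the Naïve, vehicle, TCDD and FICZ libraries. Gbp2, a guanylate-binding protein, was at 32.8, 85.6, 124 and 237 CPM, with ConA+FICZ highest, and its log2 ratio of 1.38 was 0.87 when the rule was applied to thinned cells. In T cells both genes were lower in ConA+Veh than in Naïve, Igtp at 86.0 and 57.1 CPM and Gbp2 at 33.9 and 22.0 CPM.

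**Figure D3:**
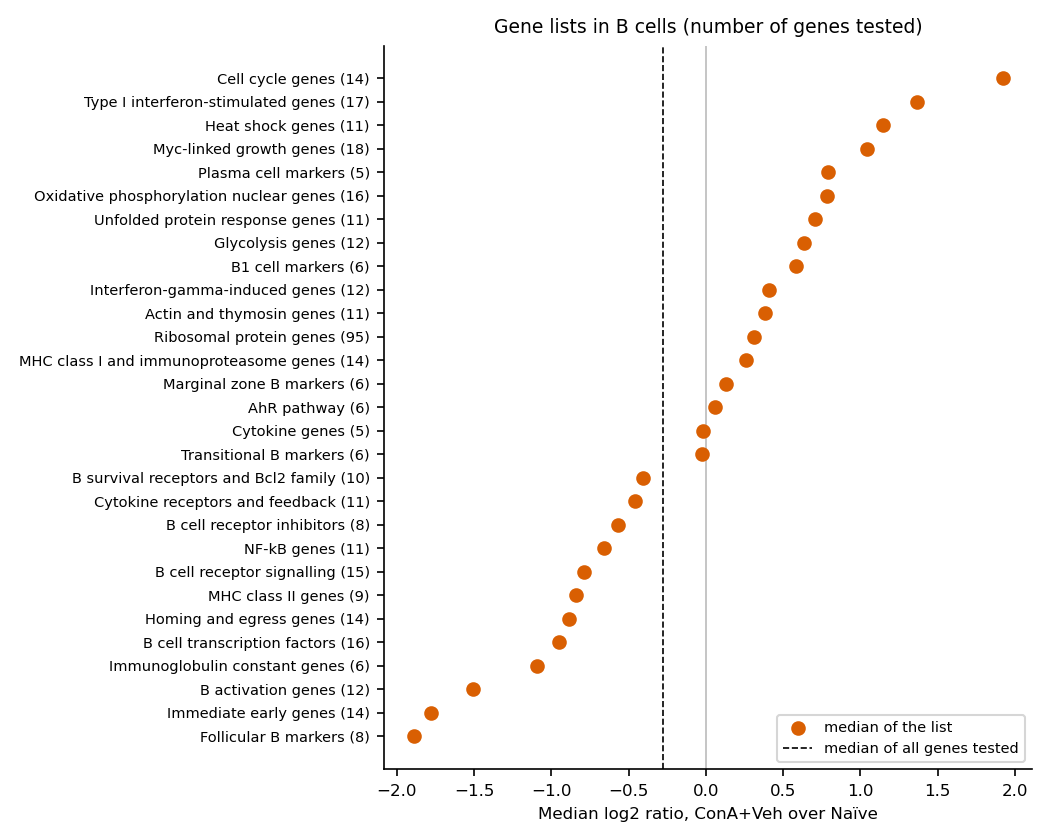
Median log2 ratio of ConA+Veh over Naïve in B cells for each B cell and pathway list with at least 5 genes tested, with the number of genes tested in parentheses. The dashed line is the median of all genes tested (−0.28). Follicular markers lie lowest at −1.89, and type I interferon-stimulated genes (1.37) and cell cycle genes (1.92) lie highest.

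Of 14 homing genes tested, 6 were at least 2-fold lower and 1, Cxcr3, higher (median −0.89), against 19.1% lower over all genes, and 7 passed in neither direction. Cxcr4, the receptor for the chemokine CXCL12, was at 355, 66.3, 56.8 and 84.4 CPM in the Naïve, vehicle, TCDD and FICZ libraries, and Itgb7, an integrin subunit for gut homing, at 134, 22.5, 12.1 and 34.0 CPM. Cxcr3, the receptor for interferon-induced chemokines, was at 2.59, 54.4, 28.8 and 38.8 CPM. It was seen in 0.104% of thinned Naïve B cells and in 3.14%, 2.71% and 2.91% of thinned cells of the ConA libraries, so it was detected in few cells throughout. In T cells Cxcr3 was at 119 CPM in Naïve and 37.7 in ConA+Veh.

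Of 18 Myc-linked growth genes, 9 were at least 2-fold higher and 1 lower, with a median of 1.04, and 14 were higher after centring. The lower gene was Myc itself, the transcription factor that the list is named for, at 309, 97.9, 96.2 and 181 CPM in the Naïve, vehicle, TCDD and FICZ libraries. Npm1, a nucleolar protein of ribosome assembly, was at 547, 1761, 2139.6 and 1737 CPM. Of 11 heat shock genes, 6 were at least 2-fold higher and 0 lower (median 1.15), among them Hspd1, the mitochondrial chaperonin, at 91.2, 369, 429 and 435 CPM. Of 12 glycolysis genes, 5 were at least 2-fold higher and 0 lower (median 0.63), and Ldha, which makes lactate, was at 185, 730.4, 915 and 774 CPM. Of 16 nuclear genes of oxidative phosphorylation, 4 were at least 2-fold higher and 0 lower (median 0.79), and 12 were higher after centring (median 1.06), against 13.5% of all genes after centring.

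Gclm, a subunit of the enzyme that starts glutathione synthesis, was named after its values were seen and was higher in the ConA libraries. It was at 64.4, 645, 539.8 and 364 CPM in the Naïve, vehicle, TCDD and FICZ libraries, and a UMI was found in 5.52%, 40.5%, 30.3% and 21.2% of thinned cells. ConA+Veh was 10.0-fold above Naïve, and ConA+FICZ was lower than ConA+Veh by 0.83 on the log2 scale (interval of the ratio −0.93 to −0.73). The order was the same in T cells, at 130.0, 786, 620 and 467 CPM.

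Cell cycle genes were higher in ConA+Veh. Of 14 tested, 13 were at least 2-fold higher and 0 lower (median 1.92). Tyms, which makes thymidylate for DNA synthesis, had 2 UMIs in Naïve and 120 in ConA+Veh, and Birc5, a mitotic chromosome protein, had 5 and 222. Mki67, a marker of cycling cells, was at 3.02, 43.0, 53.8 and 44.7 CPM in the Naïve, vehicle, TCDD and FICZ libraries, and after thinning in 0%, 2.62%, 2.71% and 1.78% of cells (0 of 961 Naïve cells at this depth, although 7 UMIs were present before thinning). Thinned T cells held a Mki67 UMI in 0.761% (Naïve) and 15.3% (ConA+Veh) of cells. In the window of 1500 to 4000 UMIs, 7 genes of the list could be tested and 2 were at least 2-fold higher (median 0.72). Without cells that held at least 2 UMIs of T, NK, myeloid or neutrophil markers, 9 of 11 tested were at least 2-fold higher (median 1.34).

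**Figure D4:**
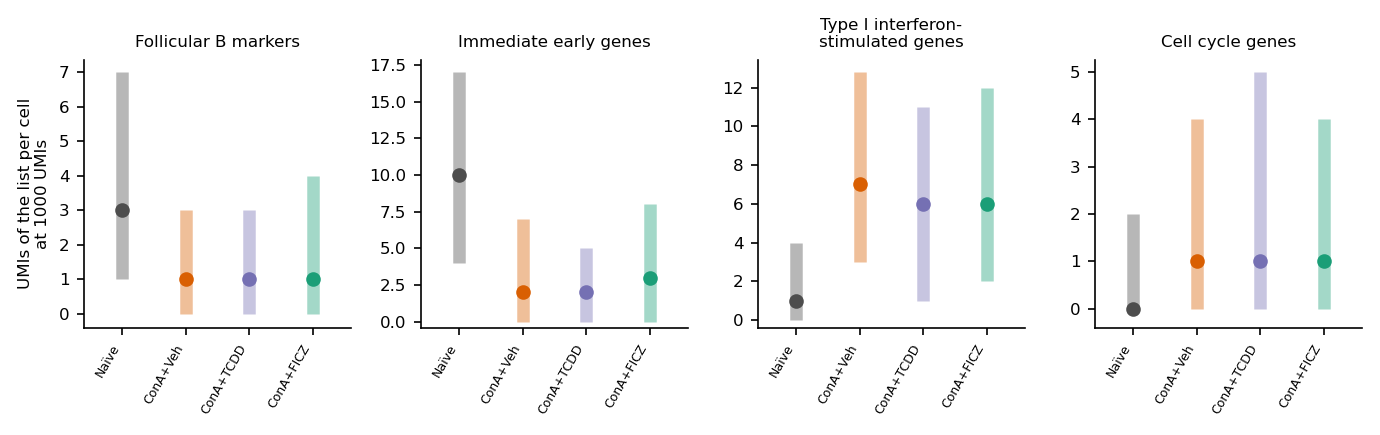
Summed UMIs of 4 gene lists per B cell after thinning to 1000 UMIs. Points are medians and bars run from the 10th to the 90th percentile of cells. The type I interferon list moves from a median of 1 in Naïve to 7 in ConA+Veh, and the immediate early list from 10 to 2.

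The lowest ratios among genes with at least 100 UMIs were found for Rapgef4 (8 UMIs in ConA+Veh and 110 in Naïve, log2 ratio −4.35, −5.59 to −3.32), Fos (−3.83), Fcer2a (−3.83), Pgap1 (−3.28) and Ppp1r15a (−3.16), which restarts translation after stress. Mirt1, Phf1, Gm15675, Plk2 and Junb completed the 10, at −3.12 to −2.89. Each of these 10 genes had at most 10% of its UMIs in any single cell. Rapgef4 encodes an exchange factor for RAP proteins that responds to cyclic AMP. The highest ratios were set in part by few cells and by genes of other cell types: S100a9, a neutrophil gene, had 1197 of its 1544 ConA+Veh UMIs in 1 cell, and Ifitm1, Prtn3, Cxcl2, Ube2c and Lcn2 each had more than 20% of their UMIs of both libraries in 1 cell. Without such genes, Tyms, Rmi2, Pclaf, Birc5, Uhrf1, Cdca8, Spc24, Cxcr3, Rrm2 and Cenpm led, at 5.34 to 4.18. Pclaf, a replication factor, had 615 UMIs in 93 ConA+Veh cells and 12 UMIs in Naïve, 8 of them in 1 cell. All of these except Cxcr3 act in DNA replication, repair or mitosis.

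Markers of other cell types moved with these comparisons. The T and NK cell list summed to 28.5 CPM in Naïve, 251 in ConA+Veh, 75.7 in ConA+TCDD and 146 in ConA+FICZ. Without thinning, 4.18%, 42.1%, 27.7% and 10.4% of the B cells held a UMI of it, in part because depth differed. After thinning, 97.9%, 88.7%, 91.4% and 95.6% of the B cells held 0 UMIs of this list. Its most abundant gene was Ccl5 in Naïve and ConA+FICZ, Gzma in ConA+Veh and Nkg7 in ConA+TCDD, and Cd3d, Cd3e and Cd3g were at 0 by the rule. The myeloid and neutrophil list summed to 148, 1180, 154 and 1442 CPM, of which the top 5 cells held 29.4%, 79.3%, 36.3% and 79.2%. The leading gene was Tyrobp in Naïve, S100a9 in ConA+Veh and ConA+FICZ and Ly6c2 in ConA+TCDD. Leaving out cells with at least 2 UMIs of these lists kept 95.4%, 61.0%, 73.7% and 82.0% of the B cells. On the remaining cells, 7 of 8 follicular markers were at least 2-fold lower in ConA+Veh (median −1.81), 13 of 13 tested immediate early genes were lower (median −1.77) and 10 of 14 tested type I interferon-stimulated genes were higher (median 1.49).

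**Figure D5:**
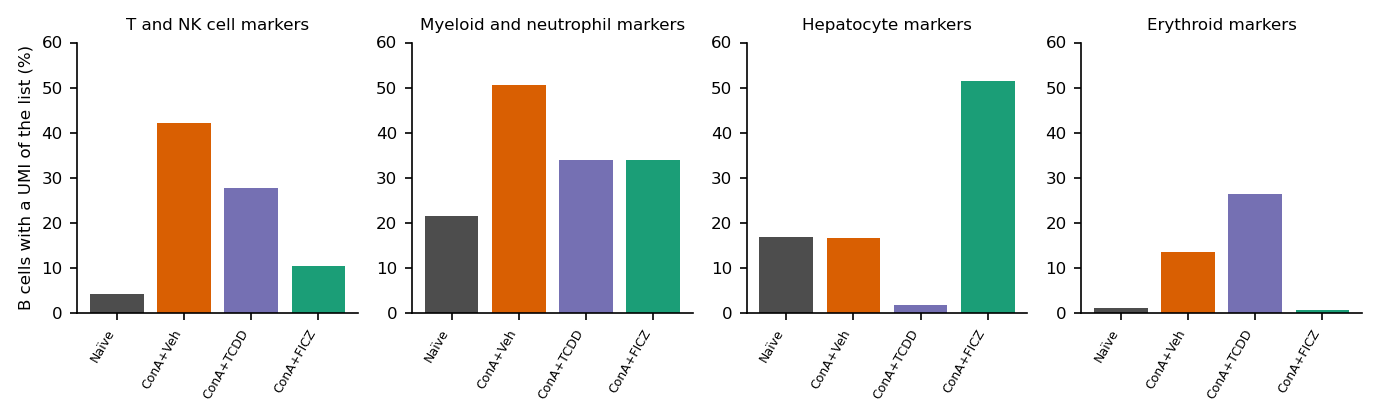
Percentage of B cells that held a UMI of 4 marker lists of other cell types, not thinned, in each library; bars start at 0. T and NK markers were most frequent in ConA+Veh (42.1%), hepatocyte markers in ConA+FICZ (51.3%) and erythroid markers in ConA+TCDD (26.3%).

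To ask what TCDD added to ConA, ConA+TCDD was set against ConA+Veh. The B cells of these libraries lay close together: of 6233 genes tested, 21 were at least 2-fold higher in ConA+TCDD (0.337%) and 89 at least 2-fold lower (1.43%), or 1.76% in either direction. The median log2 ratio of all genes was 0.02. Sums of thinned cells gave 440 higher and 497 lower. Without cells holding at least 2 UMIs of T, NK, myeloid or neutrophil markers, 23 of 4414 genes were higher and 32 lower. Markers of other cell types were among the lower genes. They were 5 of 6 myeloid and neutrophil genes tested, 3 of 5 T and NK cell genes and 3 of 3 hepatocyte genes. Follicular markers had 0 of 8 genes past 2-fold (median −0.17), and cell cycle genes 0 of 14 (median 0.26). This comparison shares its ConA+Veh library with those of ConA+Veh over Naïve and ConA+FICZ over ConA+Veh.

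AhR target genes gave little signal in B cells. Cyp1a1, a standard AhR target, had 0 UMIs in Naïve, ConA+Veh and ConA+FICZ and 1 in ConA+TCDD; Ahrr and Cyp1b1 had 0 in all 4 libraries. For Cyp1b1 in ConA+TCDD, 0 counts allow up to 2.27 CPM. Of 11 genes of the AhR pathway list, 6 could be tested and 0 passed 2-fold in ConA+TCDD over ConA+Veh (median −0.01) or in ConA+FICZ over ConA+Veh (median −0.16). Ahr, the receptor itself, was at 16.0, 24.8, 33.3 and 23.2 CPM in the Naïve, vehicle, TCDD and FICZ libraries, and the log2 ratio of ConA+TCDD over ConA+Veh was 0.42 (−0.14 to 0.96). Tiparp, an AhR-induced ADP-ribosyltransferase, was at 32.8, 28.1, 33.3 and 24.1 CPM, a log2 ratio of 0.25 (−0.30 to 0.78). Neither differed beyond counting error.

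Type I interferon-stimulated genes leaned lower in ConA+TCDD. Of 15 tested, 4 were at least 2-fold lower (Irf7, Rtp4, Oasl2 and Ifit3) and 0 higher, with a median of −0.59 against 0.02 for all genes. The median of the same genes in T cells was −0.50, and Irf7 was at −0.74 there. Irf7, the factor that amplifies type I interferon output, was at 54.4, 103, 46.9 and 127 CPM in the Naïve, vehicle, TCDD and FICZ libraries, with a log2 ratio of ConA+TCDD over ConA+Veh of −1.13 (−1.55 to −0.74). After thinning it was seen in 3.54%, 16.4%, 5.43% and 16.2% of cells. ConA+TCDD was near Naïve and apart from the other ConA libraries for Irf7. Ly6a and Bst2, in contrast, had log2 ratios of −0.14 and −0.15. The calls depended on which cells were used: 1 of 12 tested genes was at least 2-fold lower without cells holding at least 2 UMIs of the T, NK, myeloid and neutrophil lists (median −0.38), 0 of 15 when the rule was applied to thinned cells (median −0.46) and 0 of 11 in the window of 1500 to 4000 UMIs (median −0.24). The ratio of Irf7 was −0.83 with the rule applied to thinned cells and −0.69 in that window.

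Of 11 heat shock genes, 2 were at least 2-fold lower in ConA+TCDD (median −0.10), and of 11 unfolded protein response genes 1 was (median −0.05). Hspa1a, the inducible HSP70, was at 153, 81.8, 21.2 and 69.1 CPM in the Naïve, vehicle, TCDD and FICZ libraries, and Hspa1b, its neighbouring copy, at 57.9, 41.5, 12.1 and 49.0 CPM. These genes are nearly identical, so reads may have been shared between them. ConA+TCDD was lowest for both, with log2 ratios over ConA+Veh of −1.95 and −1.78, and T cells showed the same direction (−2.53 and −2.34). Xbp1, a factor of the unfolded protein response and of antibody secretion, was at 46.7, 80.7, 34.8 and 74.7 CPM. However, 62 of its 276 ConA+Veh UMIs were in 1 cell, and its log2 ratio of −1.21 became −0.40 without cells holding T, NK, myeloid or neutrophil markers. Genes with at least 100 UMIs and no cell above 20% of them in either library were also ranked. The 10 lowest ratios included Tyrobp (−2.02), a myeloid and NK cell adaptor, Gm42031 (−1.70), Pde6d (−1.49) and Slfn5 (−1.32). Slfn5, an interferon-induced gene, was at 23.3, 37.7, 15.1 and 40.8 CPM. The others of the 10 were Ms4a6b, Irf7, Hist1h2ab, Rtp4, Pxdc1 and Cebpb, at −1.13 to −0.97.

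The highest ratios of ConA+TCDD over ConA+Veh were small among genes with at least 100 UMIs, the only genes ranked here. Tomm6, a subunit of the mitochondrial import pore, led with 15.5 CPM in ConA+Veh and 37.9 in ConA+TCDD (log2 ratio 1.29, 0.70 to 1.87), but Naïve and ConA+FICZ were at 42.3 and 39.3 CPM, so that ConA+Veh was the library that stood apart. Nme1, a nucleoside diphosphate kinase, followed at 34.5 and 81.0 CPM (1.23, 0.84 to 1.62), a ratio of 0.56 in cells of 1500 to 4000 UMIs. Gm47283, Comtd1, Rbm26, Gm10131, N4bp1, Auh, Tyms and AY036118 followed with ratios of 1.08 to 0.91. Erythroid markers were seen in 26.3% of ConA+TCDD and 13.4% of ConA+Veh B cells without thinning. After thinning, 91.9% and 97.0% of these cells held 0 UMIs of them. The part of erythroid markers in the result was not tested.

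To ask what FICZ added to ConA, ConA+FICZ was set against the same ConA+Veh library. Of 7357 genes tested, 106 were at least 2-fold higher in ConA+FICZ (1.44%) and 27 at least 2-fold lower (0.367%), or 1.81% in either direction, and the median log2 ratio was 0.08. In cells of 1500 to 4000 UMIs the balance turned, with 44 higher and 68 lower. Genes of hepatocytes, neutrophils and macrophages made up the 10 highest ratios among genes with at least 100 UMIs. Saa1, an acute phase protein made by hepatocytes, had 4, 36, 0 and 361 UMIs in the Naïve, vehicle, TCDD and FICZ libraries, or 1.73, 10.5, 0 and 102 CPM. In T cells of the same libraries it was at 0, 4.75, 0.381 and 55.6 CPM, so ConA+FICZ was highest in both cell types. The hepatocyte list summed to 92.0, 98.8, 3.79 and 325 CPM in B cells, was led by Alb in Naïve and ConA+TCDD and by Hp in the others, and had 7 of 8 tested genes at least 2-fold higher in ConA+FICZ over ConA+Veh (median 2.02). The 10 highest ratios among genes with at least 100 UMIs were Ngp, Hmox1, C1qc, Orm1, Saa2, Hpx, Saa1, C1qb, Fgg and Fga. These are genes of neutrophils, macrophages or hepatocytes rather than of B cells.

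The next rankings also took genes with at least 100 UMIs. When genes with a cell above 20% of their UMIs of both libraries together were left out, 9 hepatocyte genes and Mt1 made up the 10 highest. A stricter limit of 20% within each library also took out these hepatocyte genes, whose ConA+Veh UMIs were few, and then placed the GTPase genes Gbp2 and Irgm1 within the 10 highest. Gbp2 was at 85.6 CPM in ConA+Veh and 237 in ConA+FICZ (log2 ratio 1.47, 1.27 to 1.67), with ConA+TCDD between them at 124. It was seen in 2.08%, 8.73%, 12.7% and 21.2% of thinned cells of the Naïve, vehicle, TCDD and FICZ libraries, against 2.79%, 2.19%, 5.78% and 4.22% of T cells. Irgm1, an immunity-related GTPase, was at 28.1, 30.1, 42.4 and 73.6 CPM in the same order (log2 ratio of ConA+FICZ over ConA+Veh 1.29, 0.96 to 1.63, and 0.90 in cells of 1500 to 4000 UMIs). ConA+FICZ was highest for both genes. Of the 13 genes of the interferon-gamma list that could be tested, these were the 2 past 2-fold, with a median of 0.42, against 1.44% higher over all genes. Of 19 type I interferon-stimulated genes, 1 (Ifit1) was at least 2-fold higher (median 0.14).

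Fos and Mt1 were also higher in ConA+FICZ. Fos was at 46.2 CPM in ConA+Veh and 135 in ConA+FICZ (log2 ratio 1.54, 1.28 to 1.81), well below the 656 CPM of Naïve, and was the only one of 14 immediate early genes past 2-fold. Mt1, a metallothionein that binds zinc, was at 11.7, 22.5, 28.0 and 86.9 CPM in the Naïve, vehicle, TCDD and FICZ libraries, whereas T cells had 75.4, 86.5, 344 and 229 CPM. The order of ConA+TCDD and ConA+FICZ was thus reversed between the cell types. Hepatocyte markers were also higher in B cells of ConA+FICZ than of ConA+Veh, at 325 and 98.8 CPM. Without thinning, 51.3% and 16.6% of these cells held a UMI of them. The part of hepatocyte RNA in the Mt1 level was not tested. The others of the 10 highest under the limit within each library were Etfdh, Hsh2d, Tomm6, Smyd5, Klhdc4 and Fkbp5, at 1.58 to 1.13. In cells of 1500 to 4000 UMIs Etfdh was at 0.85 in place of 1.58 and Hsh2d at 0.53 in place of 1.49, and Tomm6 was at 0.95 in place of 1.34 with the rule applied to thinned cells.

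Genes with at least 100 UMIs and no cell above 20% of them in either library were ranked for ConA+FICZ over ConA+Veh. Of the 10 lowest ratios, 3 belonged to histone genes, which had no list of their own. Hist1h2ab was at 0.864, 28.1, 12.9 and 7.08 CPM in the Naïve, vehicle, TCDD and FICZ libraries, Hist1h4d at 15.6, 40.0, 24.2 and 12.5, and Hist1h1b at 9.51, 66.1, 59.8 and 27.7. Their log2 ratios of ConA+FICZ over ConA+Veh were −1.99, −1.68 and −1.25, the last of which was −0.88 without cells holding T, NK, myeloid or neutrophil markers. In T cells the same ratios were −1.42, −1.19 and −1.02. None of the 14 cell cycle genes passed 2-fold (median 0.11), and Mki67 was at 43.0 and 44.7 CPM. At least 2 UMIs of the cell cycle list were found in 13.1%, 47.5%, 49.8% and 34.6% of thinned cells of the Naïve, vehicle, TCDD and FICZ libraries. Hist1h1e, a further histone gene, was at −1.09 (−1.37 to −0.81), with 36 of its 158 ConA+FICZ UMIs in 1 cell, and Hist1h2ap and Hist1h4i were at −0.66 and −0.37, within 2-fold. The members of the histone family share much of their sequence, so reads could have been assigned to more than 1 of them. Nkg7, Rpl9-ps6, Bcl2a1b, Sertad3, Rfxap, Cdk2ap1 and Crem followed at −1.27 to −0.90.

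The AhR ligands were last set against each other, with the caution that both libraries were treated with ConA, that doses and timing of FICZ are not known, and that each is 1 library. Of 6521 genes tested, 16 were at least 2-fold higher in ConA+TCDD (0.245%) and 229 at least 2-fold lower (3.51%), or 3.76% in either direction, with a median log2 ratio of −0.05. In cells of 1500 to 4000 UMIs, 75 were higher and 71 lower. Genes with at least 100 UMIs and no cell above 20% of them in either library were ranked. The 10 lowest ratios were all hepatocyte genes: Hp, Saa1, Saa2, Fgb, Hpx, Alb, Orm1, Fga, Serpina3k and Fgg. Saa1 had 0 UMIs in ConA+TCDD and 361 in ConA+FICZ, and the nearer bound of its log2 ratio was −5.19. Irf7 differed by −1.43 (−1.84 to −1.04), and 6 of 18 type I interferon-stimulated genes were at least 2-fold lower in ConA+TCDD with 0 higher (median −0.76). In the window of 1500 to 4000 UMIs, Irf7 differed by −0.79 and 0 of 12 genes of that list were lower (median −0.16). Fos differed by −2.02 (−2.50 to −1.57) and Mt1 by −1.63 (−2.17 to −1.14). Gbp2 differed by −0.93 (−1.18 to −0.69) and was within 2-fold. The highest ratios among genes with at least 100 UMIs included Hist1h2ap (1.42), AY036118 (1.31) and Hist1h1b (1.11). With the rule applied to thinned cells, Hist1h1b was at 0.61. Hist1h4i, Comtd1, Atp2b1, Appl1, Bcl2a1b and Bcl2a1d were at 0.99 to 0.93.

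The B cells left out for activation markers were few, 52 in Naïve, 61 in ConA+Veh, 64 in ConA+TCDD and 75 in ConA+FICZ, and deeper, with median UMIs of 2679, 10852, 5879 and 8166. Their levels are given as description. Fcer2a was at 159, 27.2, 11.1 and 18.6 CPM in these cells, and Ly6a at 1109, 2347, 1889.6 and 2015. In both kinds of B cell Fcer2a was thus highest and Ly6a lowest in Naïve. Irf7 was at 40.7, 30.1, 22.3 and 44.0 CPM in the cells with activation markers. Its level was thus not higher in ConA+Veh than in Naïve there. These cells were few and no interval is given, so a difference between the kinds of B cell cannot be read from these values.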

How the data were processed

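Liver mononuclear cells of 4 libraries were measured by 5′ droplet single-cell RNA-seq. The authors deposited raw UMI counts per gene and barcode, which the submitters' processing notes credit to Cell Ranger 3.0.2 with the mm10 build, and all 9300 deposited barcodes (500 or more UMIs each) were read. No normalized values were used here. Groups were taken from the sample titles, 1 library per group, so folds carry intervals for counting error and no test was run.

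B cells were chosen by UMIs of named genes, summed per library and scaled to CPM. Genes with at least 50 UMIs in a pair of libraries were compared and called at 2-fold. Immunoglobulin and T cell receptor variable segments and the genes of the rule were left out. Mitochondrial genes were left out of the rankings only. Intervals were exact Poisson (CPM), exact Clopper-Pearson (shares) and exact binomial (ratios), at 95%. A count of 0 was set against a floor of 3 counts. For shares of cells with a UMI, each cell was thinned to 1000 UMIs with seed 1, which left out 20, 11, 3 and 15 B cells of the Naïve, vehicle, TCDD and FICZ libraries. Doublets were limited only by the absence of Cd3 UMIs, and were examined by leaving out cells with at least 2 UMIs of T, NK, myeloid or neutrophil markers (cells with hepatocyte or erythroid UMIs stayed in). Named genes were list members and the 10 highest and 10 lowest ratios among genes with at least 100 UMIs, with and without genes concentrated in 1 cell, and Gclm was added after its values were seen. Some genes that the rule names are not reported here. Cells, lists and comparisons were chosen with earlier results of these data known. Gene positions are from GENCODE on GRCm38. The alternatives tried were other scalings, count minimums, cell weights, thinning, depth windows and stricter cell rules. The ratios, calls and intervals were tested on simulated counts, and shares, list summaries and promoter matches were not. In each simulated comparison, 100% of the genes raised 4-fold were called. Of the genes lowered 4-fold, 73% were called for ConA+Veh over Naïve and 88% for ConA+TCDD over ConA+Veh. The shares were 84% for ConA+FICZ over ConA+Veh and 87% for ConA+TCDD over ConA+FICZ. The simulated sums had no spread between cells, unlike the data. The scripts ran under Python 3.11.15 with scipy 1.17.1 (intervals), numpy 2.4.6, pandas 2.3.3 and matplotlib 3.10.9.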

Additional observations from a re-analysis of the deposited data

How the results depend on the processing

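No paired analysis was possible because each group had 1 library, and for the same reason no replicate could be left out. Of 112 counts of genes recomputed under the alternatives, 59 were within 1.5 times the reported count. The share of B cells in the Naïve, vehicle, TCDD and FICZ libraries was 49.5%, 23.2%, 15.3% and 27.7% with no limit on Mreg, Cd86 and Cd200, and 50.2%, 25%, 13.7% and 27.0% of the barcodes with at most 10% mitochondrial UMIs. With the rule applied to thinned cells the share in ConA+FICZ was 22.9%, against 22.1% in ConA+Veh. Counts are given next as higher and lower for ConA+Veh over Naïve, ConA+TCDD over ConA+Veh, ConA+FICZ over ConA+Veh and ConA+TCDD over ConA+FICZ. With at least 200 UMIs per gene they were 304 and 460, 2 and 16, 18 and 6, and 2 and 38. With at least 10 UMIs they were 1006 and 2296, 248 and 469, 480 and 206, and 236 and 723. With the nearer bound of the interval past 2-fold they were 267 and 476, 1 and 29, 32 and 13, and 3 and 61. In cells of 1500 to 4000 UMIs, a window chosen after seeing the data, they were 181 and 677, 9 and 32, 44 and 68, and 75 and 71, so that the balance for FICZ over ConA+Veh turned. For the last 3 comparisons, sums of thinned cells gave 440 and 497, 651 and 353, and 432 and 683. The genes in these sums met the minimum of 50 UMIs before thinning and held fewer UMIs after it. The mean over cells gave 77 and 152 for ConA+TCDD over ConA+Veh, 218 and 67 for ConA+FICZ over ConA+Veh, and 101 higher for ConA+TCDD over ConA+FICZ. Centring gave 966 and 788 for ConA+Veh over Naïve. Without cells that held at least 2 UMIs of T, NK, myeloid or neutrophil markers, 362 were higher in ConA+Veh over Naïve, 32 lower in ConA+TCDD over ConA+Veh and 15 lower in ConA+FICZ over ConA+Veh. Without genes that had over 20% of their UMIs of either library in 1 cell, which was added after seeing the data, 58 were lower in ConA+TCDD over ConA+Veh, and 67 were higher and 12 lower in ConA+FICZ over ConA+Veh. With 20% of the UMIs of both libraries together as the limit, also added after seeing the data, these counts were 63, 86 and 17. With members chosen after thinning, 151 were lower in ConA+TCDD over ConA+FICZ.

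Of 762 recomputed ratios of named genes past 2-fold, 5 changed direction. Without cells holding such markers, the log2 ratio of ConA+Veh over Naïve was −3.08 for Jchain and −1.19 for S100a9, and S100a9 was at −0.92 with members chosen after thinning. In the window of 1500 to 4000 UMIs, the ratio of ConA+TCDD over ConA+Veh was −0.21 for Cd9 and 0.14 for Oasl2. The cause of the other changes was not tested. A ConA+TCDD total of 1320808 UMIs, the smallest of the 4, sets the least precise values.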

Other observations

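Light chain genes were detected together in most of these B cells, although a B cell is known to express either a kappa or a lambda chain. Cells were not thinned for these shares. UMIs of Igkc and of at least 1 of Iglc1, Iglc2 and Iglc3 were both present in 92.8% of Naïve, 90.2% of ConA+Veh, 80.4% of ConA+TCDD and 89.1% of ConA+FICZ cells. Lambda was carried mainly by Iglc2 and Iglc3, with 3457 and 2341 UMIs in Naïve against 652 for Iglc1. In contrast, a lambda variable segment was found in 20.4%, 26.7%, 21.9% and 19.7% of cells in the same order, also not thinned. Thinned T cells of Naïve held Igkc in 0.254% and Iglc2 in 0.254% of cells, a depth unlike that of the B cell shares above. These T cells were also chosen to hold 0 UMIs of Cd79a, Cd79b and Ms4a1. The cause was not tested.

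Ig variable segments, counted without thinning, were diverse in every library. Of 185 heavy chain segments in the annotation, 101, 95, 75 and 93 were seen in the Naïve, vehicle, TCDD and FICZ libraries, and Ighv1-26 was the most frequent in each, in 6.56%, 7.08%, 9.6% and 6.30% of the cells with any such segment. Igkv10-96 was the most frequent kappa segment in Naïve (5.56%), ConA+Veh (9.04%) and ConA+FICZ (8.00%), and Igkv6-23 in ConA+TCDD (5.77%). A UMI of a switched isotype was held by 27, 11, 5 and 25 cells.

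A few cells with at least 10 UMIs of Jchain, the joining chain of secreted IgM and IgA, met the rule: 1 in Naïve, 2 in ConA+Veh, 0 in ConA+TCDD and 2 in ConA+FICZ. In ConA+Veh these 2 cells held 1045 of 1046 Jchain UMIs and 1786 of 6515 Ighm UMIs. Without them, Ighm was at 1392 CPM in ConA+Veh, and without the corresponding cells at 2441 in Naïve and 1416 in ConA+FICZ, against 1337 in ConA+TCDD. The Igkc levels were then 3718, 1273, 1152 and 1762 CPM in the Naïve, vehicle, TCDD and FICZ libraries. Ighm itself was seen in 18.8% of thinned Naïve T cells and in 8.38%, 4.89% and 5.15% of those of the ConA libraries, more than Igkc, Ighd, Iglc1, Iglc2 or Iglc3.

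Malat1, a nuclear-retained noncoding RNA, was at 7029, 2852, 2451 and 2651 CPM in the Naïve, vehicle, TCDD and FICZ libraries, and at 6804, 1621, 1458 and 1098 CPM in T cells. In B cells of 1500 to 4000 UMIs its log2 ratio of ConA+Veh over Naïve was −0.58 in place of −1.30. The cold-inducible gene Cirbp was at 230, 47.9, 65.1 and 46.7 CPM in B cells, whereas Rbm3, of the same kind, was at 602, 480.2, 528 and 725 CPM. Ribosomal protein genes had a median log2 ratio of 0.31 in ConA+Veh over Naïve, with 6 of 95 at least 2-fold higher and 3 lower, against 7.77% and 19.1% of all genes.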
